A study of Homo sapiens with 4 samples.

Results

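Intermediate filaments are the rope-like fibres of the cytoskeleton and of the nuclear lamina, and the 68 genes described here encode them. The members were all symbols of a count table of 34545 that are named as keratins (KRT and a number, with or without a letter A to C) or are VIM, DES, NES, GFAP, PRPH, INA, NEFL, NEFM, NEFH, SYNM, LMNA, LMNB1 or LMNB2. They fell into 29 type I keratins, 26 type II keratins, 4 type III genes, 6 type IV genes and 3 lamins. Their RNA was sequenced in 2 libraries labelled Ctrl and 2 labelled Creatine. All were labelled DLD-1, a cell line from a human colorectal cancer, of genotype WT, and the groups differ in their label by the creatine treatment alone. The labels give neither dose nor time of treatment, nor whether the libraries of a group are separate cultures, so each p-value below rests on a spread that may be technical. The study asked how creatine acts on ferroptosis, a cell death driven by iron and lipid peroxidation.

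A keratin filament is built from pairs of one type I and one type II chain, so an epithelial cell makes chains of both kinds. Simple epithelia such as that of the colon are known for KRT8, KRT18, KRT19 and KRT20, stratified epithelia for pairs such as KRT5 with KRT14 and KRT1 with KRT10, and hair for a set of its own that includes KRT81 and KRT86. Vimentin (VIM) assembles without a type I or type II partner and marks mesenchymal cells and many cultured lines, while desmin (DES) marks muscle, GFAP marks astrocytes, and the neurofilament chains NEFL, NEFM and NEFH mark neurons. The lamins line the inner face of the nuclear envelope and are present in nearly all cells.

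Sequences are shown for the promoters of KRT10 and LMNB1, the members that changed in opposite directions and kept their calls in the fits described below. They come from RefSeq on GRCh38.p14 and run from 250 bases before to 50 after a transcript start. That of KRT10 is on the minus strand at chr17:40822565-40822864 and that of LMNB1, for the second of its 2 starts in the table, on the plus strand at chr5:126776886-126777185. Capitals mark matches on either strand to any of 4 motifs that do not overlap each other here. The TATA box was searched as TATAAA. The box bound by the factor NF-Y was searched as CCAAT. The GC box was searched as GGGCGG, and the AP-1 site as TGANTCA.
KRT10: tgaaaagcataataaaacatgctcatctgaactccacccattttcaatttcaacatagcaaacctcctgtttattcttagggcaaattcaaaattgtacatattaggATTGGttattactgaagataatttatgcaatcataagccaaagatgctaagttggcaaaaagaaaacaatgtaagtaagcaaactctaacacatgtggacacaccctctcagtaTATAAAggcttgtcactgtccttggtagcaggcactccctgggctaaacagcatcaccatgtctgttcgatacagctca
LMNB1: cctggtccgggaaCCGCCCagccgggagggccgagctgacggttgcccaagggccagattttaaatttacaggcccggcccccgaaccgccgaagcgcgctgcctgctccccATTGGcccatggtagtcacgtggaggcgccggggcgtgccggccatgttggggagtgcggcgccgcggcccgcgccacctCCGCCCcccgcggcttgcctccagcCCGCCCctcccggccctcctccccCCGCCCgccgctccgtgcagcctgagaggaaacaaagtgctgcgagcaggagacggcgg

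The KRT10 window held 1 match to the TATA motif, whose first base lies at -29 from the start, and 1 to the NF-Y motif. The LMNB1 window held 4 matches to the GC box and 1 to the NF-Y motif, and its other window in the table held no match to any of these motifs. Of all 35116 promoters of this length, 11.5% held the TATA motif, 34.6% the NF-Y motif, 45% the GC box and 7.71% the AP-1 motif. Of the members, 42 of 68 had 49 promoters in the table. The TATA motif was in 22 of the 49 (44.9%), the NF-Y motif in 21 (42.9%), the GC box in 15 (30.6%) and the AP-1 motif in 0. These matches describe the letters of the windows only.

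Total counts lay between 48249693 and 59860043 per library. Levels are given as CPM, the share of a library's reads that fall on a gene after scaling by edgeR's TMM factors, and, to compare genes, as CPM per kb of the gene length in the deposited table. A count of 0 still allows 3 counts, or 0.0501 to 0.0626 CPM depending on the library, and such floors cover counting error only. Markers of colon epithelium were low: all 13 of a list that includes EPCAM, CDH1, VIL1 and CDX2 were under 1 CPM in every library, 8 of them did not pass the filter on low counts, and CDX1 and FABP1 had 0 counts in all 4. The highest value of any of them was 0.876 CPM, for GPA33 and for TFF3 in Ctrl-2. The data therefore show little of the colon epithelial profile that the label implies, and the libraries are called by their labels. Of other cell types, the lists for fibroblasts and muscle had 6 of 10 and 8 of 10 genes under 1 CPM in every library. For neurons and glia, endothelium and immune cells these were 8 of 12, 4 of 7 and 6 of 8. Over the whole table it was 21629 of 34545 symbols. The only genes of these lists with a mean over 10 CPM were TNNT1 (muscle), NEFL (neuronal), TIE1 (endothelial) and CD68 (immune).

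The members took 0.507% and 0.510% of the counts in Ctrl-1 and Ctrl-2, and 0.460% and 0.463% in Creatine-1 and Creatine-2. Most of them were silent or nearly so, as were most symbols of the table. Under 1 CPM in every library were 49 of the 68 members and 21629 of all 34545 symbols. In all, 19 members had 0 counts in all 4 libraries (10 type I and 8 type II keratins, and the neuronal gene INA), against 12591 of all symbols. Another 3 members never exceeded 3 counts. A further 19 did not pass edgeR's filter on low counts, with at most 25 counts in any library. Of these, 7 had counts in all 4 libraries. In the order Ctrl-1, Ctrl-2, Creatine-1 and Creatine-2, KRT78 had 25, 6, 2 and 6 counts, KRT72 had 21, 4, 5 and 6, and KRT13 had 4, 18, 9 and 4. The others of the 7, KRT32, KRT38, KRT6A and KRT85, had 1 to 16 counts per library. The filter kept 27 members, of which 10 had means under 1 CPM in both groups, and a mean over 10 CPM was reached by 10 members.

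Among the members, VIM (chromosome 10, 17228259 to 17237593 on GRCh38, as are all gene positions here) and KRT81 (chromosome 12, 52285913 to 52291534) were the most abundant per length. VIM stood at 2686 and 2538 CPM in the controls and at 2328 and 2362 CPM with creatine, or 480.5 CPM per kb over the 4 libraries. KRT81 stood at 751 and 881 CPM in the controls and at 869 and 870 CPM with creatine, or 437 CPM per kb, rank 45 of all 34545 symbols on that scale. Both creatine libraries lay below both controls for VIM, while for KRT81 they lay between the controls. The order of these 2 genes depends on the length used: VIM over KRT81 was 1.00 to 1.34 across the libraries with the deposited lengths and 2.42 to 3.23 with the longest coding transcript of each gene, which moved VIM to 1161 CPM per kb and left KRT81 at 437.

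Below these 2 came, on the same CPM per kb scale over 4 libraries, LMNB2 at 68.5, LMNA at 66.7, KRT18 at 59.0, KRT80 at 43.5, KRT8 at 25.1, KRT10 at 22.5 and LMNB1 at 12.8. The ranges of LMNB2 (59.2 to 78.2), LMNA (57.0 to 76.8) and KRT18 (55.3 to 63.8) overlapped, and so did those of KRT8 (21.5 to 28.5) and KRT10 (16.5 to 28.2). With the deposited lengths KRT8 was above KRT10 in both controls and below it in both creatine libraries. With coding transcript lengths KRT8, at 60.7 to 80.5 CPM per kb, was above KRT10, at 16.7 to 28.5, in all 4. On that scale LMNA was at 146, KRT18 at 112 and KRT8 at 71.0 CPM per kb, which put LMNA and KRT18 above LMNB2 (79.6) and KRT8 above KRT80 (48.6). The light neurofilament chain NEFL followed at 2.84, the simple epithelial keratin KRT7 at 1.85, the hair keratin KRT34 at 1.76 and KRT79 at 1.20 CPM per kb. Each of the other 55 members was under 1 CPM per kb.

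**Figure D1:**
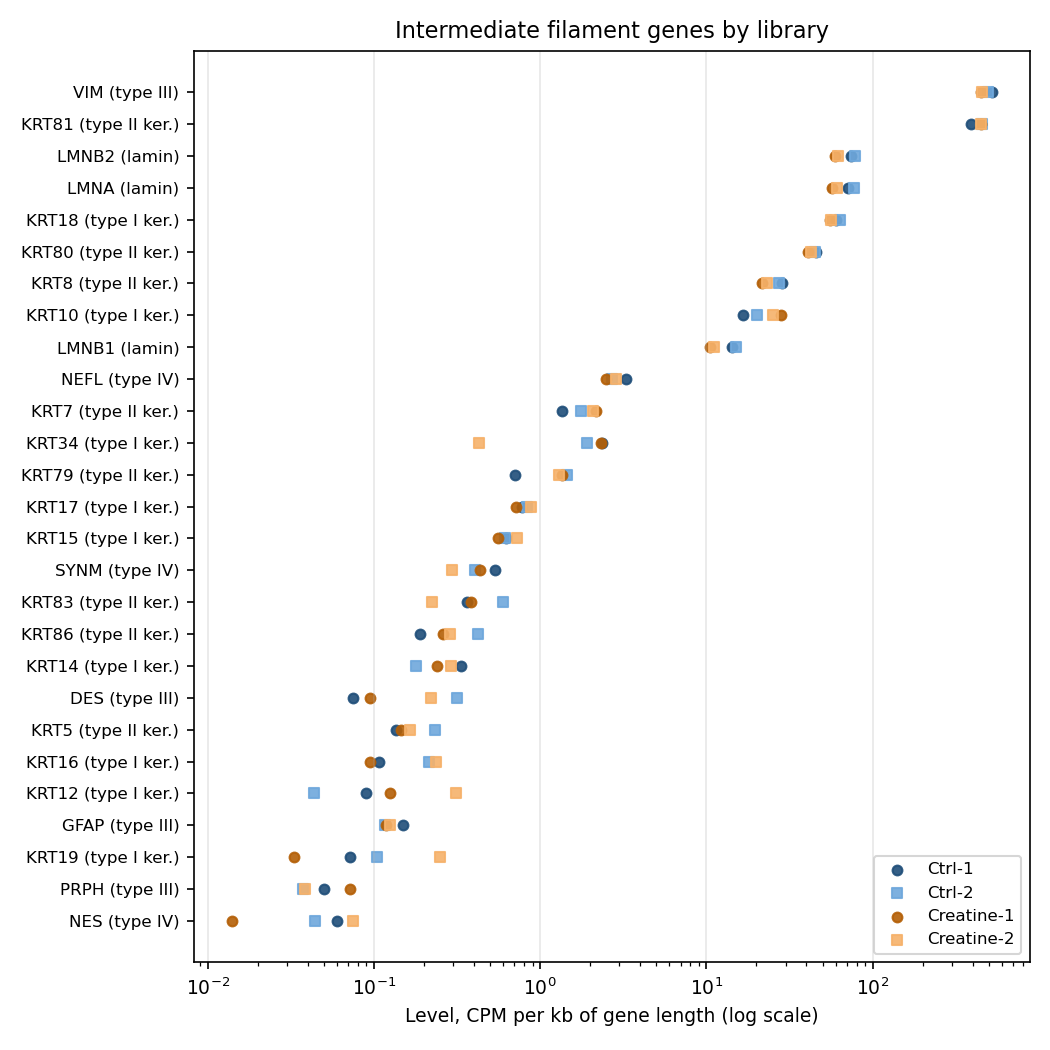
Level of the 27 members that passed the filter on low counts, in CPM per kb of gene length on a log axis, with 1 point for each of the 4 libraries. VIM and KRT81 stand at 437 CPM per kb or more on average, 7 further genes between 12.8 and 68.5, and the rest under 3.

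The hair keratin KRT81 was abundant without its relatives. Of 26 keratins of hair and root sheath, KRT81 alone had a mean over 10 CPM, and 22 were under 1 CPM in every library. KRT86 had 27 and 50 counts in the controls and 32 and 33 with creatine, against 45000, 43249, 44722 and 41694 for KRT81, or 865 to 1667 KRT81 counts for each KRT86 count. KRT83, another hair keratin, had 41, 55, 37 and 20 counts in the same order. KRT81 (minus strand) lies inside the annotated span of KRT86 (plus strand) on chromosome 12. The coding sequences of these genes, from GENCODE 29 transcripts, were 89.6% identical over 1519 aligned positions, with 1 unbroken identical run of 605 bases, and 39.6% of the 100-base windows of KRT86 occur in KRT81. Reads from that run match both genes. How such reads were counted is not given in the sources used here, so the level of each gene is uncertain. KRT83 shared no window of 100 bases with KRT81.

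Of the 6 keratins of simple epithelia, only KRT8 and KRT18 were abundant. KRT19 had 10 and 12 counts in the controls and 4 and 28 with creatine, KRT20 had at most 2 in any library, and KRT23 at most 4. KRT7, at 5.56 and 7.23 CPM in the controls and 8.90 and 8.56 CPM with creatine, was intermediate. Among the keratins of stratified epithelia, KRT10 and KRT80 had means over 10 CPM, and 17 of 22 were under 1 CPM in every library. The basal pair KRT5 and KRT14 had 20 to 49 counts per library, and KRT1, the usual partner of KRT10, had 0 counts in all 4.

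Type II transcripts outnumbered type I transcripts in every library. Summed over the family, type II keratins came to 467 and 534 CPM per kb in the controls and 517 and 521 with creatine, and type I keratins to 81.5 and 88.2, and 87.9 and 85.4, CPM per kb. The ratio was 5.72 and 6.05 in the controls and 5.88 and 6.11 with creatine, and 3.85 to 4.16 with coding transcript lengths. The ranges of the ratio overlapped between the groups. With the deposited lengths KRT81 made up 83.4% to 87.1% of the type II sum. Within type I, KRT18 held 74.0% and 72.4% in the controls against 62.9% and 66.3% with creatine, and KRT10 held 20.2% and 22.8% against 32.1% and 29.5%. With coding transcript lengths KRT10 held less, 12.2% and 13.8% in the controls against 20.5% and 18.5% with creatine, KRT18 held 75.7% to 83.7%, and KRT81 held 74.0% to 79.8% of type II. These shares were not tested, and an exact permutation test of 2 against 2 libraries cannot go below p = 0.333 (two-sided).

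**Figure D2:**
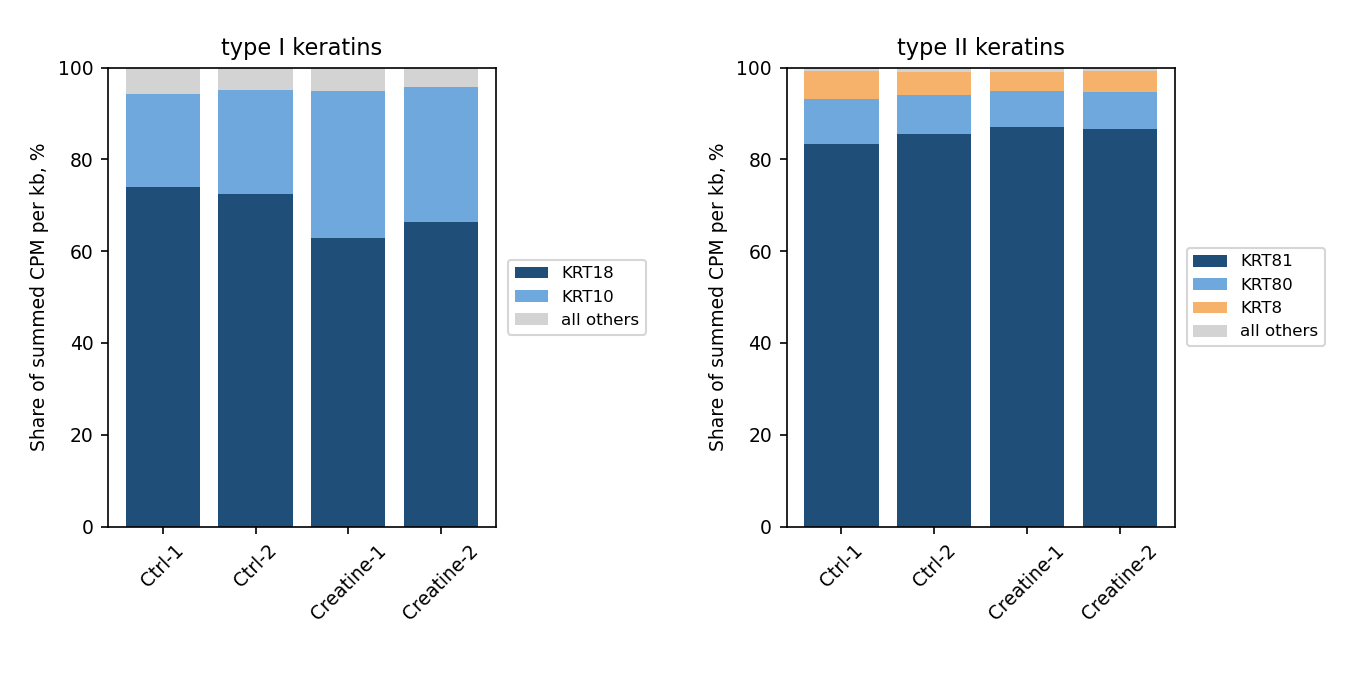
Share of each gene in the summed level (CPM per kb of the deposited lengths) of type I and type II keratins, in percent, 1 bar for each library. KRT10 takes 20.2% and 22.8% of the type I sum in the controls and 32.1% and 29.5% with creatine, and KRT81 takes over 80% of the type II sum in all 4 libraries.

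Creatine and control libraries were compared with edgeR's quasi-likelihood test over the 15302 genes that passed the filter, with Benjamini-Hochberg adjusted p under 0.05 as the threshold. Of the 27 members tested, KRT10 rose and KRT8, LMNA, LMNB1 and LMNB2 fell, while 22 did not pass. Over all genes tested, 19.6% passed, 9.15% higher and 10.5% lower, so the members' 5 of 27 (18.5%) is a share near that of all genes and is no result about the family as a whole. The CPM ranges of the groups did not overlap in 10 of the 27, 3 with creatine above and 7 below, against 58.2% of all genes (29.2% above and 28.9% below). The median log2 fold change was -0.15 over the 27 and 0.01 over all genes. In bulk RNA, fewer cells of a kind and less RNA per cell cannot be told apart.

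KRT10 (chromosome 17, 40818117 to 40822595), the type I keratin of the upper epidermal layers, had 35.4 and 43.1 CPM in Ctrl-1 and Ctrl-2 and 60.4 and 54.0 CPM in Creatine-1 and Creatine-2. Both creatine libraries lay above both controls. Its mean of 39.3 ± 5.48 CPM became 57.2 ± 4.53 CPM (SD, n = 2 each), with a log2 fold change of 0.55 (SE 0.10, edgeR adjusted p = 0.00091). It passed with each library left out in turn, at 0.41 to 0.68.

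KRT8 (chromosome 12, 52897187 to 52949954), the type II chain of simple epithelia, had 196 and 189 CPM in the controls and 148 and 159 CPM with creatine. The groups did not overlap. Its mean of 193 ± 5.06 CPM became 153 ± 7.84 CPM (SD, n = 2 each), with a log2 fold change of -0.33 (SE 0.07, edgeR adjusted p = 0.0023). Without Creatine-1 it did not pass (-0.28, edgeR adjusted p = 0.058).

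KRT18, the type I partner of KRT8, had 194 and 205 CPM in the controls and 178 and 182 CPM with creatine, also without overlap. Its log2 fold change was -0.15 (95% interval -0.29 to -0.01, edgeR adjusted p = 0.12). KRT8 over KRT18, per kb, was 0.473 and 0.431 in the controls and 0.389 and 0.408 with creatine. The genes are neighbours on opposite strands whose annotated exons share 525 bases, and the strand setting of the counting is not given in the sources used here.

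KRT8 also has many pseudogene copies, 50 symbols in the table, which together held 31.6% to 32.7% of the reads of KRT8 and its copies in each library. KRT8P14 alone had 4414 and 3495 counts in the controls and 2827 and 2810 with creatine. Its sequence was 90.1% identical to the KRT8 transcript and shared no window of 100 bases with it, and its log2 fold change was -0.35 (edgeR adjusted p = 0.0044). With the reads of all copies added, the log2 ratio of mean CPM of KRT8 stayed at -0.33. The 67 KRT18 copies held 1.69% to 2.07% of the reads of that gene and its copies.

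The control mean of VIM was 2612 ± 105 CPM and the creatine mean 2345 ± 23.7 CPM (SD, n = 2 each), a log2 fold change of -0.16 (95% interval -0.27 to -0.04). It lay just above the threshold with edgeR (adjusted p = 0.053) and passed with DESeq2 (adjusted p = 0.031) and limma-voom (adjusted p = 0.025), so its call depends on the tool. Of its annotated exons, 12.4% overlap the antisense gene VIM-AS1, which had 657 to 826 counts per library.

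**Figure D3:**
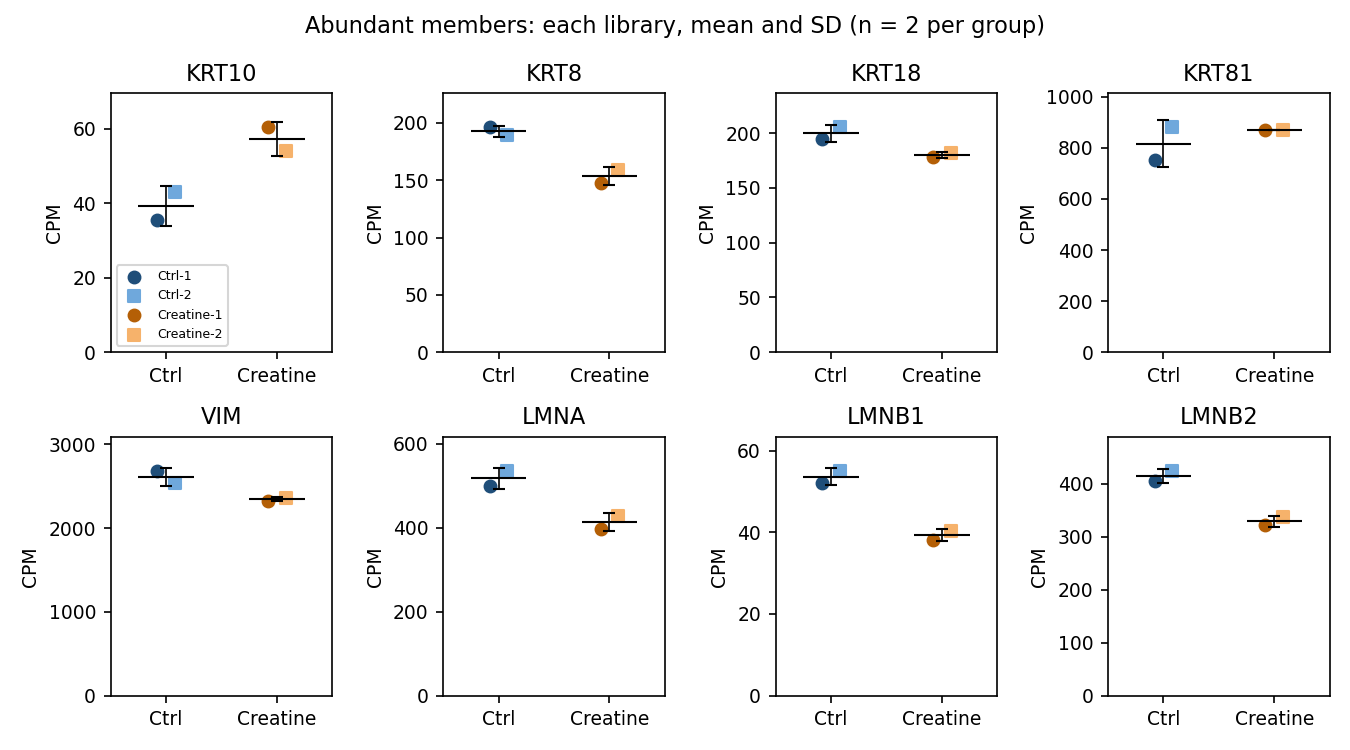
CPM of 8 abundant members in each library (points), with the group mean (long line) and SD (bar, n = 2 per group), each axis starting at 0. The creatine points lie above the controls for KRT10, between them for KRT81 and below them for the other 6 genes.

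All 3 lamins fell. With the correction for GC content and length described below, LMNB1 alone passed (-0.41), with LMNA at -0.04 and LMNB2 at -0.05. The values that follow are uncorrected. LMNA (chromosome 1, 156082573 to 156140089), which gives lamins A and C, had 500.1 and 536 CPM in the controls and 398 and 429 CPM with creatine, a log2 fold change of -0.33 (SE 0.07, edgeR adjusted p = 0.0018). LMNB2 (chromosome 19, 2427638 to 2456996), a B-type lamin, had 405 and 425 CPM against 321 and 337 CPM, a log2 fold change of -0.33 (SE 0.06, edgeR adjusted p = 0.0013). LMNB1 (chromosome 5, 126776623 to 126837020), the other B-type lamin, had 52.1 and 55.1 CPM against 38.2 and 40.4 CPM, a log2 fold change of -0.45 (SE 0.09, edgeR adjusted p = 0.0016). For each lamin both creatine libraries were below both controls. Without Creatine-1, LMNA did not pass (-0.27, edgeR adjusted p = 0.053), while LMNB1 and LMNB2 passed with each library left out.

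The ratio of LMNA to LMNB2 overlapped between the groups, while the share of LMNB1 did not. LMNA over LMNB2, per kb, was 0.960 and 0.982 in the controls and 0.963 and 0.991 with creatine. LMNB2 over LMNB1 was 5.20 and 5.16 in the controls and 5.63 and 5.58 with creatine. LMNB1 took the smallest share of the 3, 8.93% and 8.91% of their summed CPM per kb in the controls and 8.30% and 8.26% with creatine. These ratios come from the uncorrected values.

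The remaining tested members did not pass. The control mean of KRT81 was 816 ± 92.0 CPM and the creatine mean 869 ± 1.33 CPM (SD, n = 2 each), a log2 fold change of 0.09 (95% interval -0.05 to 0.23, edgeR adjusted p = 0.39). KRT80, a type II keratin of many epithelia, was at 199 and 195 CPM in the controls and 177 and 186 CPM with creatine (-0.12, edgeR adjusted p = 0.22). KRT7 was at 0.45 (95% interval 0.10 to 0.81, edgeR adjusted p = 0.067). Without Ctrl-2 both KRT81 (0.20, edgeR adjusted p = 0.0031) and KRT7 (0.64, edgeR adjusted p = 0.017) passed, and without Ctrl-1 KRT81 took the other sign (-0.02) and KRT7 was at 0.27.

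KRT34, a type I hair keratin, differed between the creatine libraries. It had 246 and 165 counts in the controls, 210 in Creatine-1 and 36 in Creatine-2, so the low library was 1 of the 2 creatine libraries and the other lay between the controls. Its log2 fold change of -0.62 (edgeR adjusted p = 0.32) was -2.31 without Creatine-1 (edgeR adjusted p = 7.4e-06) and 0.12 without Creatine-2.

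NEFL had 14.3 and 11.8 CPM in the controls and 10.8 and 12.3 CPM with creatine (-0.18, edgeR adjusted p = 0.44), while the other neurofilament chains NEFM and NEFH had at most 8 counts in any library. SYNM, the synemin of muscle and glia, was at 4.19, 3.16, 3.38 and 2.32 CPM (-0.37, edgeR adjusted p = 0.36). GFAP had 69 to 108 counts, DES 11 to 38, the neuronal gene PRPH 8 to 16 and the progenitor gene NES 4 to 20, with overlapping groups in each. KRT79 (0.30), KRT15 (0.05) and KRT17 (-0.01), at 1.80 to 5.14 CPM, also overlapped. Of annotated exon bases, 18.4% in GFAP are shared with CCDC103 (52 to 103 counts per library) and 56.2% in PRPH with an antisense gene. Both neighbours lie on the opposite strand, and the strand setting is not given, so the counts of GFAP and PRPH are less certain. KRT12, a keratin of the cornea, had 10 and 4 counts in the controls and 12 and 28 with creatine (1.68, edgeR adjusted p = 0.21). The tested keratins KRT5, KRT12, KRT14, KRT16, KRT19, KRT83 and KRT86 stayed under 1.2 CPM in every library, and their standard errors of 0.57 to 0.93 on the log2 scale leave their direction undetermined at this depth.

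**Figure D4:**
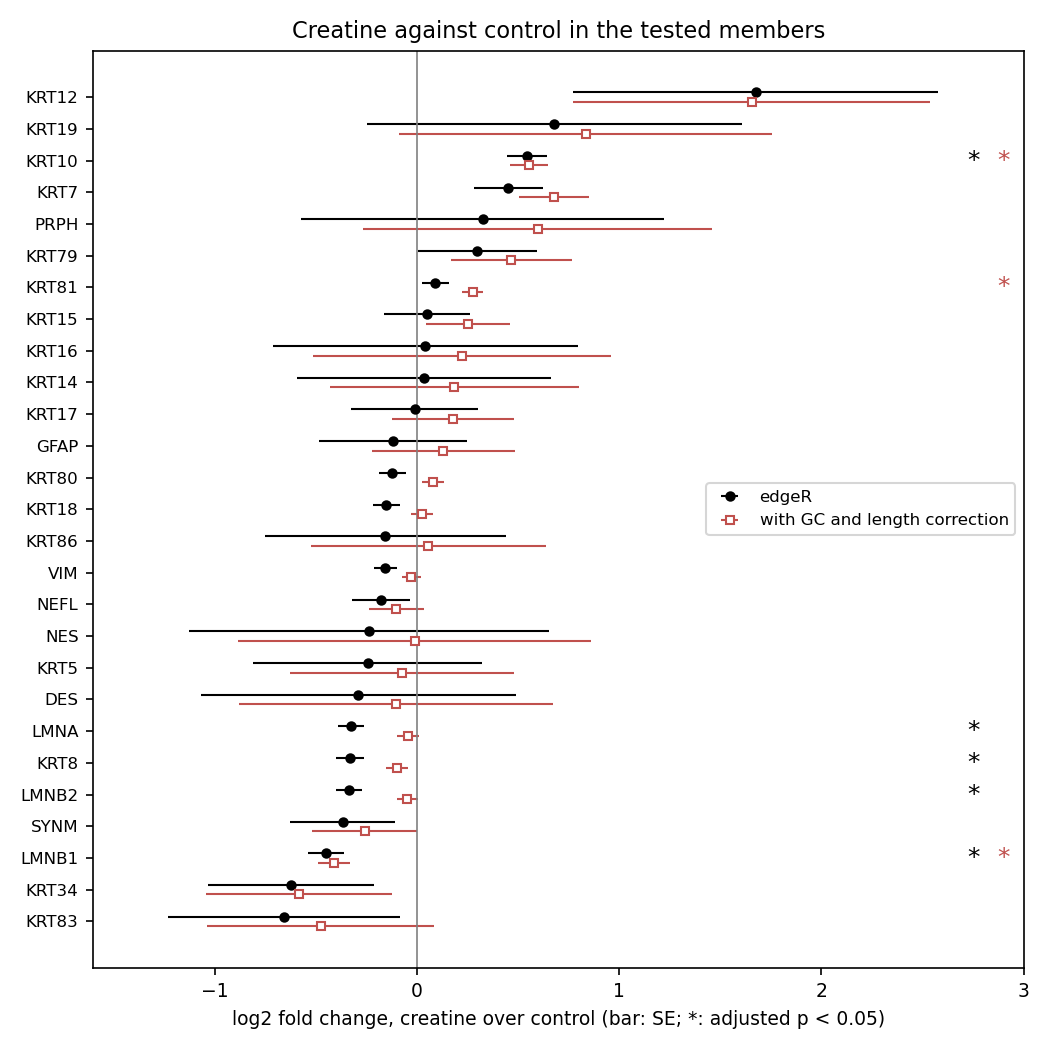
Log2 fold change of creatine over control with its SE for the 27 tested members, from edgeR (black circles) and after the correction for GC content and length (red squares). Stars mark adjusted p under 0.05 in the fit of that colour: KRT10 and LMNB1 have both, KRT8, LMNA and LMNB2 the black one only, and KRT81 the red one only.

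Over the whole table, change moved with transcript GC content, and the members' values stand beside this trend. The 2 controls had slopes of 0.0819 and 0.125 in log2 CPM per 10 points of GC and the 2 creatine libraries -0.129 and -0.0778, so the trend and the treatment cannot be told apart. Among 1686 genes with 60% to 65% GC, the median log2 fold change was -0.25 and 31.7% passed the test as lower. Among 2414 genes with 55% to 60% GC these values were -0.19 and 24.2%, and among 3096 genes with 45% to 50% GC they were 0.02 and 2.13%. LMNA (61.7% GC) and LMNB2 (63.0%) lay at the 36.2 and 34.6 percentile of their GC class, and KRT8 (57.7%) at the 26.6 percentile. KRT18 (57.3%), KRT80 (57.2%) and VIM (52.7%) lay at the 58.2, 63.3 and 39.1 percentile. In contrast, LMNB1 (49.98% GC) lay at the 5.94 percentile, KRT10 (51.3%) at the 94.8, KRT7 (59.0%) at the 95.6 and KRT81 (62.7%) at the 85.9 percentile.

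A fit with each library's trend on GC content and gene length removed passed 296 genes (1.93%), 1.05% of those tested higher and 0.882% lower. Of the 27 members 2 passed as higher and 1 as lower, with a median log2 fold change of 0.06. KRT10 (0.55, edgeR adjusted p = 0.0088) and LMNB1 (-0.41, edgeR adjusted p = 0.020) passed again, at nearly the same size. KRT81 passed as higher (0.28, edgeR adjusted p = 0.020). LMNA (-0.04), LMNB2 (-0.05), KRT8 (-0.10) and VIM (-0.03) did not pass, with edgeR adjusted p of 0.77, 0.74, 0.43 and 0.85, and KRT18 (0.03) and KRT80 (0.08) took the other sign. KRT7 was at 0.68 (edgeR adjusted p = 0.056). With each library left out of the corrected fit, KRT10 stayed between 0.44 and 0.68 and LMNB1 between -0.47 and -0.36, and both passed every time, while KRT81 did not pass without Creatine-1 (0.24, edgeR adjusted p = 0.053).

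**Figure D5:**
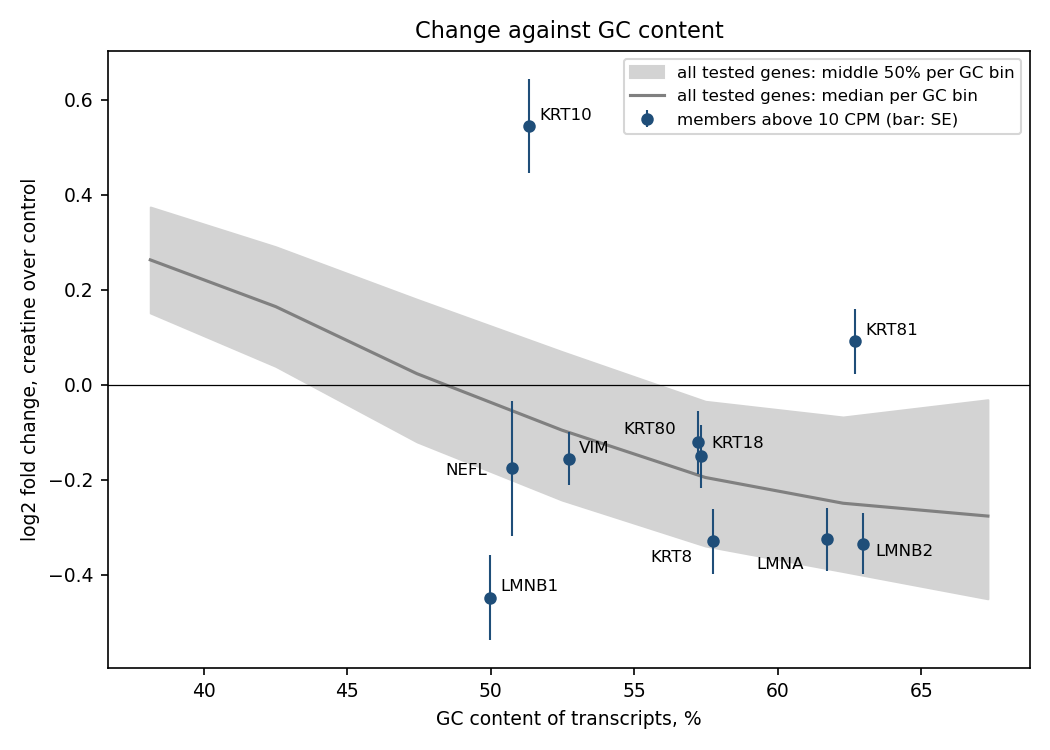
Log2 fold change of creatine over control against the GC content of transcripts for the 10 members over 10 CPM (points, with SE), over the median (line) and middle 50% (band) of all tested genes in 7 GC classes. KRT10 and KRT81 lie above the band and LMNB1 below it, while LMNA, LMNB2, KRT18, KRT80 and VIM lie inside it.

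Genes that anchor, bind or modify filaments were compared as a list of 36, chosen with earlier results of these data known. Of 29 tested, 4 passed as higher and 3 as lower, and 22 did not, which is 24.1% called against 19.6% of all genes, and the median log2 fold change was -0.03. Plectin (PLEC), the linker of intermediate filaments to other structures, fell from 1260 and 1361 CPM to 1072 and 1150 CPM (-0.24, edgeR adjusted p = 0.0093). Dystonin (DST), a linker of the same family, rose by 0.31 (edgeR adjusted p = 0.0035), and the desmosome-associated nuclear protein gene PNN rose by 0.25. The integrin chain ITGA6 of hemidesmosomes (0.19) and the 14-3-3 protein gene YWHAZ (0.19) were higher as well. ITGA6 was at 358 to 439 CPM, while ITGB4, the other integrin chain of hemidesmosomes, was at 0.874 to 2.24 CPM. The mitotic kinases PLK1 (-0.33) and AURKB (-0.35), which phosphorylate vimentin, fell, while CDK1, another mitotic kinase that does so, was at 0.19 (edgeR adjusted p = 0.082) with both creatine libraries above both controls. The kinase gene PRKCE was at 0.18 (edgeR adjusted p = 0.060). Desmoplakin (DSP), which ties keratins to desmosomes, was at 0.95 to 1.67 CPM, and plakoglobin (JUP) was under 0.21 CPM in every library. Some other desmosomal genes of the list were more abundant than DSP and JUP in all 4 libraries. DSG2 was at 67.7 to 76.0, PERP at 191 to 225, PKP4 at 78.0 to 90.2 and PKP3 at 11.7 to 15.5 CPM. PKP2 was at 6.66 to 8.04 CPM, while DSC2, DSC3 and PKP1 reached at most 0.652 CPM.

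After the correction 2 of the linker list passed, PRKCE (0.28) and the tetraspanin CD151 (0.28), against 1.93% of all genes. PLEC took the other sign (0.12, edgeR adjusted p = 0.28). CDK1 did so too (-0.066, edgeR adjusted p = 0.75), and so had the same sign as PLK1 (-0.12) and AURKB (-0.24), which did not pass. Without Creatine-1, AURKB kept its call and the others of the 7 did not, in a fit with fewer calls over the whole table as well. Without Creatine-2, PNN, YWHAZ and ITGA6 did not pass, and ITGA6 also failed without Ctrl-2.

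Partners of the lamina and enzymes that process prelamin A formed a list of 28, of which 26 were tested. With creatine 3 passed as higher and 4 as lower, and 19 did not pass, 26.9% called against 19.6% of all genes, with a median log2 fold change of 0.00. ZMPSTE24, the protease that matures prelamin A, rose from 91.2 and 82.6 CPM to 112 and 114 CPM (0.38, edgeR adjusted p = 0.0015), and ICMT, which methylates it before that step, fell from 282 and 252 CPM to 219 and 231 CPM (-0.25, edgeR adjusted p = 0.014). The nuclear pore protein gene TPR (0.29) and SYNE1 (0.27), a nesprin that links the nucleus to the cytoskeleton, were higher. The chromatin protein HMGA1 (-0.32), PRR14 (-0.52), which tethers heterochromatin to the lamina, and NARF (-0.28), which binds prelamin A, fell. The lamin B receptor LBR (0.10), emerin (EMD, -0.09), and LEMD2 (-0.19) did not pass. After the correction SYNE1 passed (0.30, edgeR adjusted p = 0.020) and the other 6 did not, in a fit that passed 1.93% of all genes. Without Creatine-1, HMGA1, ZMPSTE24 and PRR14 kept their calls and the others of the 7 did not. Calls over the whole table were fewer in that fit as well. Without Ctrl-1, ICMT and NARF did not pass, and without Ctrl-2, SYNE1 did not.

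A list of 24 transcription and splicing factors was chosen as possible regulators of VIM and keratin genes, and their action on these genes was not tested. Of the 24, 14 were tested for change, 2 passed as higher and 0 as lower, or 14.3% called against 19.6% of all genes. ZEB1, a repressor of epithelial genes, rose from 64.6 and 59.9 CPM to 80.1 and 85.6 CPM (0.41, edgeR adjusted p = 0.0013). ESRP1, a splicing factor of epithelial cells, rose from 2.14 and 2.02 CPM to 4.21 and 4.43 CPM (1.06, edgeR adjusted p = 0.0051). In the corrected fit ZEB1 was at 0.24 and ESRP1 at 0.90, with edgeR adjusted p of 0.083 and 0.071. ZEB2 (0.21), SNAI2 (0.11), TWIST1 (-0.33), TWIST2 (-0.41), TFAP2A (-0.39) and TFAP2C (-0.21) did not pass. GRHL2, ELF3, TP63 and HNF4A, which drive epithelial programmes, were under 0.21 CPM in every library. Not all such factors of the list were that low. KLF5 was at 40.4 to 44.0 CPM, EHF at 0.667 to 1.26 CPM and GRHL3 at 0.467 to 1.13 CPM.

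TIE1 of the endothelial list (-0.27) and CD68 of the immune list (-0.23) fell alongside the lamins and KRT8, the summed level going from 373 and 385 CPM to 313 and 317 CPM for the 7 endothelial genes and from 182 and 172 CPM to 151 and 152 CPM for the 8 immune genes. These sums are nearly all TIE1 (369 and 382 CPM in the controls, 310 and 314 with creatine) and CD68 (179 and 170, and 147 and 150), and the other tested genes of both lists did not pass. In the corrected fit TIE1 (-0.013) and CD68 (-0.13) did not pass, with edgeR adjusted p of 0.95 and 0.31. The defining markers CDH5 and PTPRC were under 0.5 CPM in every library. Their part in the results was not tested.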

How the data were processed

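RNA of 4 libraries was sequenced, and the authors deposited a table of raw, whole-number read counts per gene symbol with a gene length in bases as another column. Per the submitters' processing notes, the tools were HISAT2 2.2.1, FastQC 0.11.9, featureCounts and DESeq2, on GRCh38. Annotation release, strand setting and handling of reads with several matches: not given in the sources used here, so overlapping genes and near copies are less certain. Counts were tested with edgeR 4.0.16 (R 4.3.3): filterByExpr, TMM scaling, a quasi-likelihood fit with the group as the only term, and Benjamini-Hochberg adjustment over all 15302 genes kept. The model has 2 residual degrees of freedom and a median of 22.9 after sharing spread across genes. CPM used total counts times TMM factors. The correction fitted, per library, smooth trends of log2 CPM on transcript GC (GENCODE 29) and log2 length with mgcv 1.9.3, entered as offsets, and 23 tested genes with no GC value took the median. Alternatives used DESeq2 1.42.0, limma-voom (limma 3.58.1), other scalings and filters, and each library left out. The procedure was tested on simulated counts. The members and lists were chosen with earlier results of these data known. Genes named were all members that passed the filter or had counts in all 4 libraries, the 8 tested genes with the smallest adjusted p in each of 3 lists of related genes, and a few set genes. CD151, CDK1, KLF5, EHF, GRHL3, ITGB4, DSG2, DSC2, DSC3, PERP, PKP1, PKP2, PKP3 and PKP4 were named after their values were seen. So were transcription factors and markers at low level, and single copies or neighbours.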

Additional observations from a re-analysis of the deposited data

How the results depend on the processing

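The fit was repeated with other scalings, filters and tools, a replicate block, a correction for GC content and length, and each library left out. KRT10 and LMNB1 kept direction and call in every one of them, and the call of VIM, at the threshold, passed in some and not in others. The count over all 15302 genes, 3001 in the reported fit, was 296 with the correction and 651 with block and correction. It ranged from 1162 (without Creatine-1) to 3116 with a library left out, and was 1949 without Creatine-2. For the members, 5 calls became 8 with the replicate block (against 24.8% of all genes), 3 with the correction (1.93%), and 4 to 8 with a library left out (7.27% of all genes without Creatine-1 and 19.4% without Ctrl-2). The linker list went from 7 to 2 with the correction, to 2 with block and correction, and to between 1 and 8 with a library left out. The lamina list went from 7 to 1, to 3, and to between 3 and 9 in the same order. The deviations of same-numbered libraries had a correlation of -0.0228 across 15302 genes, and the labels give no shared batch or culture. With 2 libraries per group this cannot decide whether the numbers pair the libraries, and the reported fit used no pairing.

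Log2 fold changes that took the other sign under the correction, given without and then with the block, were those of GFAP (0.13 and 0.14), KRT17 (0.18 and 0.18), KRT18 (0.025 and 0.026), KRT80 (0.081 and 0.081), KRT86 (0.057 and 0.13), PLEC (0.12 and 0.12), LEMD2 (0.022 and 0.023), SNAI2 (-0.10 and -0.10), EMD (0.058 and 0.061) and LBR (-0.10 and -0.10). DES was at 0.046 with block and correction, KRT17 at 0.0072 with upper quartile scaling, and KRT16 at -0.00052 with limma-voom and -0.013 with the block. With the correction alone, CDK1 (-0.066), DSG2 (-0.075), PERP (-0.073), PKP2 (-0.016), PKP3 (0.033), KLF5 (-0.055) and CDH1 (0.066) also changed sign. Of all these genes PLEC alone had passed the reported test. By construction the correction takes out all change along GC content and length, whatever its source, and the cause of the other sign was not tested.

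With a library left out the sign was not stable for genes of low count and for KRT81. The log2 fold change ranged from -1.02 to 1.05 for DES, -0.30 to 0.074 for GFAP, -0.36 to 0.57 for KRT14, -0.16 to 0.23 for KRT15, -0.76 to 0.59 for KRT16, -0.17 to 0.13 for KRT17, -1.38 to 1.50 for KRT19, -2.31 to 0.12 for KRT34, -0.58 to 0.17 for KRT5, -0.14 to 0.88 for KRT79, -0.020 to 0.20 for KRT81, -0.64 to 0.52 for KRT86, -1.87 to 0.52 for NES, -0.19 to 0.69 for PRPH and -0.52 to 0.18 for DSP. A fit with 1 library in a group takes the spread from the other group. Lengths of coding transcripts, the corrected fit with each library left out and the sum of KRT8 with its copies were chosen after seeing the data. Depth limits the members under 1 CPM, whose standard errors exceed 0.5 on the log2 scale.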
